A study of Mus musculus with 9 samples.

Results

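The genes described here are 9 members of the matrix metalloproteinase (MMP) and TIMP families, taken as a fixed list of names. They comprise the proteinase genes *Mmp8*, *Mmp9*, *Mmp12*, *Mmp13*, *Mmp14* and *Mmp19* and the inhibitor genes *Timp1*, *Timp2* and *Timp3*. All 9 were found by Ensembl identifier among the 53801 genes of the count tables, and they are 9 of the 27 Mmp and Timp genes of the annotation. MMPs are zinc-dependent endopeptidases that are made as inactive proenzymes and, once activated, cleave collagens, laminins and other matrix proteins as well as cytokines and cell surface proteins. TIMPs are small secreted proteins that bind the active site of MMPs and block it. In the ischemic brain both families are known from the breakdown of the basal lamina and tight junctions of the blood-brain barrier and from later matrix remodeling.

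RNA was sequenced from monocytes/macrophages of male C57BL/6J mice, 9 weeks old, in 3 groups of 3 libraries each. Stroke brain and stroke blood cells were collected 5 days after dMCAO, in which the distal middle cerebral artery and the common carotid artery of the left side were occluded permanently, and sham blood cells came from sham-operated mice on a day that the sources used here do not give. Each brain library was a pool of 5 mice and each blood library came from 1 mouse. Sorting used the gate CD11c-Ly6G-CD11b+CD45high, a gate that can also hold activated microglia. Total counts per library ranged from 18475118 to 22623578, so that 3 counts, used here as the floor for a gene without counts, equaled 0.133 to 0.162 counts per 1000000 counts of the library (CPM). All genes that passed edgeR's filter on low counts entered its quasi-likelihood test between groups, and differentially expressed genes (DEGs) were those with a log2 fold change beyond 1 in either direction whose p, adjusted by the method of Benjamini and Hochberg, was under 0.05. With groups of 3, no permutation of libraries can reach a two-sided exact p under 0.1 for any gene.

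The comparison of stroke brain with stroke blood asks how these genes differ between cells in the injured brain and cells still in the circulation. *Mmp12*, *Mmp14*, *Mmp19*, *Timp1* and *Timp2* were upregulated in brain macrophages, *Timp1* was counted in every brain library and in no stroke blood library, and *Mmp8*, the dominant Mmp transcript of blood, was downregulated. Of the 8 listed genes that passed the filter, 5 were upregulated in the brain, against 13.1% of all 13189 genes tested, and 1 was downregulated, against 7.86%. Their median log2 fold change was 2.90, beside 0.06 for all genes tested. *Timp3* did not pass the filter, and *Mmp9* and *Mmp13* were tested without being DEGs. Genes that pass the filter through a single group differ by that fact, so these counts only describe the list. In bulk RNA, fewer cells of a type and less RNA per cell cannot be told apart.

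**Figure D1:**
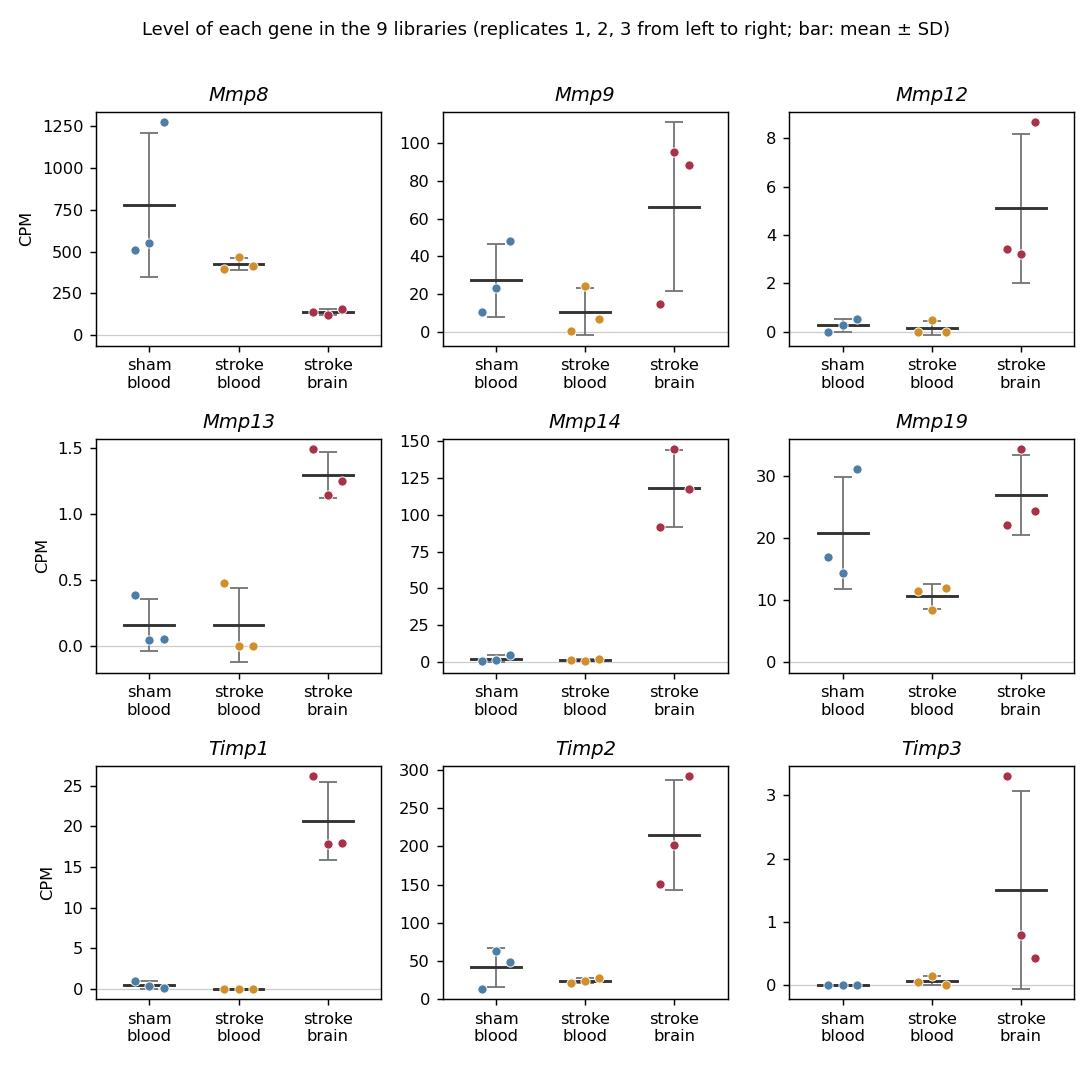
Level of each of the 9 genes in CPM (vertical axes, linear, each with its own range) in the 3 libraries of sham blood, stroke blood and stroke brain, with replicates 1, 2 and 3 from left to right and a bar for the mean ± SD. *Mmp8* is highest in sham blood (778.5 CPM on average) and lowest in the brain (136 CPM), while *Mmp14*, *Timp1* and *Timp2* are highest in the brain (118, 20.7 and 215 CPM).

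The collagenases were *Mmp8* and *Mmp13*. *Mmp8* (ENSMUSG00000005800, chr9:7558456-7568485 of GRCm38, forward strand) encodes neutrophil collagenase, which cleaves fibrillar collagens. It stood at 508, 554 and 1274 CPM in sham blood replicates 1 to 3, at 396, 464.5 and 414 CPM in stroke blood, and at 137, 117 and 154 CPM in the brain. The 3 groups did not overlap, and sham blood replicate 3 lay far above the other blood libraries. In the brain *Mmp8* fell by 1.79 on the log2 scale relative to stroke blood (SE 0.16, edgeR adjusted p = 8.06e-05), lower in each of the 3 brain libraries than in any stroke blood library. The mean was 136 ± 18.5 CPM in the brain and 425 ± 35.7 CPM in stroke blood (SD, n = 3).

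*Mmp13* (ENSMUSG00000050578, chr9:7272514-7283331, forward strand) encodes collagenase-3. It had 28, 26 and 27 counts in the brain libraries, 10, 0 and 0 counts in stroke blood and 8, 1 and 1 counts in sham blood. Every brain library was above every blood library, and all 10 stroke blood counts came from replicate 1. The log2 fold change of brain over stroke blood was 2.80 (SE 1.1, edgeR adjusted p = 0.0817), which did not pass the threshold. In 1 of 6 fits with a library left out it passed, without stroke blood replicate 1, where stroke blood held no count. That fitted fold change is therefore not given. The log2 fold change was 2.18 without stroke blood replicate 2 and 2.22 without stroke blood replicate 3, and *Mmp13* was not a DEG in either fit. Pooled over the libraries the ratio was 7.82, with a 95% interval of 4.04 to 16.9. Such intervals, and the floor of 3 counts, cover counting error only, since the libraries were amplified by PCR without molecular identifiers.

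*Mmp9* (ENSMUSG00000017737, chr2:164940780-164955850, forward strand) encodes gelatinase B, which degrades denatured and basement membrane collagens. Its level was 10.3, 23.2 and 48.3 CPM in sham blood, 0.579, 24.5 and 7.02 CPM in stroke blood and 14.7, 95.4 and 88.6 CPM in the brain. The ranges of brain and stroke blood overlapped, because brain replicate 1 lay below stroke blood replicate 2. Within stroke blood the highest library was 42.3 times the lowest, the widest spread of the listed genes with counts in all 3 of those libraries. The log2 fold change of 2.49 (SE 1.00, edgeR adjusted p = 0.0873) did not make *Mmp9* a DEG. It was a DEG in 2 of 6 fits with a library left out, without stroke blood replicate 2 (log2 fold change 3.91) or without brain replicate 1 (2.96). In the other fits it was not one, and the lowest value was 1.91, without stroke blood replicate 1.

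*Mmp8* and *Mmp9* are also granule proteins of neutrophils, which the gate against Ly6G removes by design. Of 13 neutrophil marker genes, 10 were tested in brain versus stroke blood and 8 were upregulated, with a median log2 fold change of 4.06. Their summed level was 510.5, 683 and 2033 CPM in sham blood, 252, 649 and 450.5 CPM in stroke blood and 1567, 1057 and 1644 CPM in the brain. The most abundant was *Csf3r* (273 CPM over the 9 libraries), and the largest rises were those of *Mpo* (log2 fold change 6.41), *Ltf* (5.26) and *Ngp* (4.97), with exons of *Mpo* that overlap *Gm11505*. *Ly6g*, the gene of the gated protein, had 1, 2 and 12 counts in sham blood, 0, 0 and 14 in stroke blood and 6, 0 and 14 in the brain. The neutrophil sum and *Mmp8* were both highest in sham blood replicate 3, though single genes of the list peaked in other libraries, and in the brain the neutrophil sum was above that of stroke blood where *Mmp8* fell. *Retnlg*, chosen after its values were seen, stood at 97.4, 265 and 456 CPM in sham blood and 8.69, 290 and 102 CPM in stroke blood. In the brain it was at 195, 368 and 536 CPM, so that in each group it was lowest where *Mmp9* was lowest. *Ltf*, looked at in the same way, was also lowest in replicate 1 of stroke blood and brain (0 and 24.5 CPM). In sham blood, however, *Ltf* was highest in replicate 1 (21.4 CPM), the sham library with the least *Mmp9*. Other genes of the list, also chosen after their values were seen, differed from this in the brain, where *S100a8* (255, 60.1 and 155 CPM), *S100a9*, *Mpo* and *Camp* were highest in replicate 1, the library with the least *Mmp9*. The part of other myeloid cells in the levels of *Mmp8* and *Mmp9* was not tested.

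**Figure D2:**
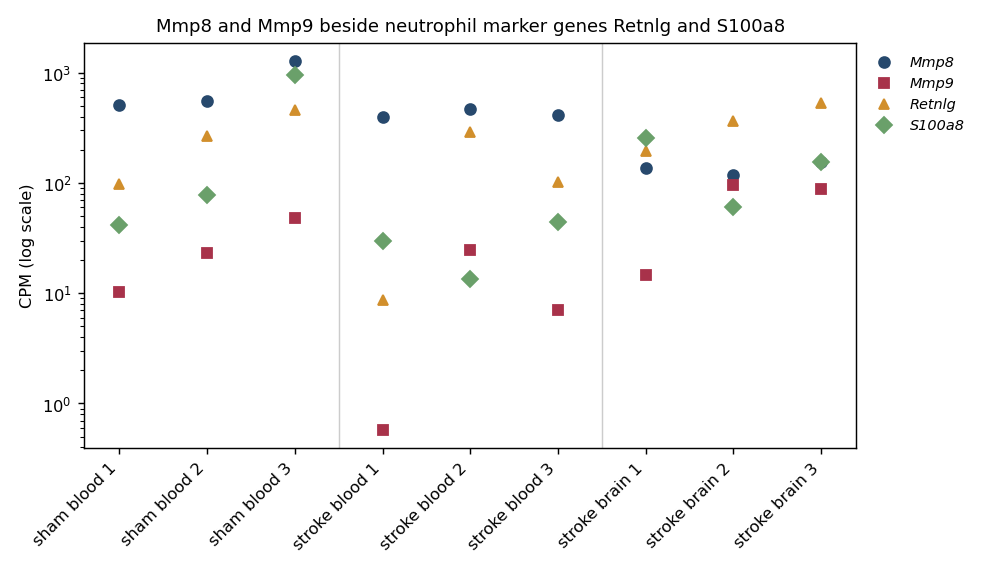
CPM on a log scale (vertical axis) of *Mmp8*, *Mmp9* and the neutrophil marker genes *Retnlg* and *S100a8* in each of the 9 libraries (horizontal axis), the marker genes chosen after their values were seen. *Mmp9* and *Retnlg* are lowest in stroke blood replicate 1 (0.579 and 8.69 CPM), whereas in the brain *S100a8* is highest in replicate 1 (255 CPM), where *Mmp9* is lowest (14.7 CPM).

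*Mmp12* (ENSMUSG00000049723, chr9:7344381-7369499, forward strand) encodes macrophage elastase, which cleaves elastin and other matrix proteins. It had 64, 73 and 187 counts in the brain, 0, 11 and 0 counts in stroke blood and 0, 6 and 10 counts in sham blood. Brain counts were above those of every blood library, although brain replicate 3 alone held more counts than the other brain libraries together. The rise over stroke blood was 4.67 on the log2 scale (SE 1.07, edgeR adjusted p = 0.0101), and the pooled ratio was 28.4 (95% interval 15.7 to 57.5). *Mmp12* was also a DEG without stroke blood replicate 2, which held all 11 counts of that group. The fitted fold change against the remaining libraries, without counts, is not given. The log2 fold change was 4.08 without stroke blood replicate 1 and 4.05 without brain replicate 3. Its exons overlap those of *Mmp1b* on the opposite strand, a gene without a count in any library.

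*Mmp14* (ENSMUSG00000000957, chr14:54431612-54445364, forward strand) encodes the membrane-type proteinase MT1-MMP, which cleaves collagen at the cell surface and, together with TIMP2, activates pro-MMP2. Its level was 92.0, 144.5 and 117 CPM in the brain, 1.30, 0.557 and 1.94 CPM in stroke blood and 0.535, 1.41 and 4.655 CPM in sham blood. All brain libraries lay far above all blood libraries, with a gap much larger than the spread in either tissue. The log2 fold change over stroke blood was 6.39 (SE 0.41, edgeR adjusted p = 2e-05), an 84.1-fold rise. With each library left out in turn it ranged from 5.97 to 6.82.

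*Mmp19* (ENSMUSG00000025355, chr10:128790910-128800824, forward strand) encodes a secreted proteinase of basement membrane components. It stood at 22.1, 34.3 and 24.3 CPM in the brain, 11.3, 8.30 and 11.98 CPM in stroke blood and 16.8, 14.3 and 31.1 CPM in sham blood. Brain and stroke blood did not overlap, but the difference was the smallest among the upregulated members. It rose by 1.20 on the log2 scale (SE 0.26, edgeR adjusted p = 0.00805), and fell short of the fold threshold without stroke blood replicate 2 or without brain replicate 2, with 0.99 in both cases. Its exons overlap *Tmem198b* and *Gm47093* on the opposite strand, and 23.2% of its 75-base stretches are also found in those genes, so its counts are uncertain because a strand setting is not given in the sources used here.

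Among the inhibitors, *Timp1* (ENSMUSG00000001131, chrX:20870166-20874735, forward strand) encodes a secreted inhibitor that also binds pro-MMP9. It had 491, 403 and 389 counts in the brain (20.7 ± 4.78 CPM), no count in the 3 stroke blood libraries, and 20, 6 and 2 counts in sham blood. The brain libraries were close to each other and above every blood library. Relative to stroke blood, brain *Timp1* was at least 139-fold higher, against the floor of 3 counts per library (edgeR adjusted p = 3.83e-05). No library changed this call when left out.

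*Timp2* (ENSMUSG00000017466, chr11:118301069-118355740, reverse strand) encodes the inhibitor that also links MT1-MMP to pro-MMP2. Its level was 150, 202 and 292 CPM in the brain, 20.99, 23.2 and 28.1 CPM in stroke blood and 13.4, 62.5 and 48.8 CPM in sham blood. The lowest brain library was above the highest blood library, and stroke blood was the most even group. *Timp2* rose by 3.00 on the log2 scale over stroke blood (SE 0.27, edgeR adjusted p = 7.96e-05), an 8.01-fold rise.

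*Timp3* (ENSMUSG00000020044, chr10:86300372-86349506, forward strand) encodes the inhibitor that is held in the matrix. It had 62, 18 and 9 counts in the brain, 1, 3 and 0 counts in stroke blood and no count in sham blood. Brain replicate 1 held most of its counts. With 89 counts against 4, the pooled ratio of brain to stroke blood was 21.5 (95% interval 8.10 to 80.6). When tested without the filter, its log2 fold change was 4.26 in edgeR (adjusted p = 0.0104) and 4.39 in DESeq2 (adjusted p = 0.00405). Its exons overlap *Syn3* on the opposite strand, which shares 20.6% of its 75-base stretches, so these counts are uncertain.

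Brain replicate 1 also stood apart in fibroblast genes. The 10 pericyte or fibroblast markers summed to 610, 22.5 and 11.9 CPM in the brain replicates, between 19.3 and 29.3 CPM in stroke blood and between 24.7 and 34.1 CPM in sham blood. Of 3 tested, none was upregulated in edgeR and *Acta2* was downregulated (log2 fold change -1.39). *Col1a1*, the most abundant, was at 224, 0.884 and 0 CPM in the brain replicates, and *Rgs5*, a pericyte marker, had 0, 1 and 0 counts. The same library held all 70 counts of *Mmp10* and 62 of the 89 brain counts of *Timp3*, and was the highest brain library for *Timp1* and *Mmp13* and the lowest for *Mmp9*, *Mmp14*, *Mmp19* and *Timp2*. The part of fibroblast RNA in the counts of *Timp3*, *Mmp10* and the other members was not tested.

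**Figure D3:**
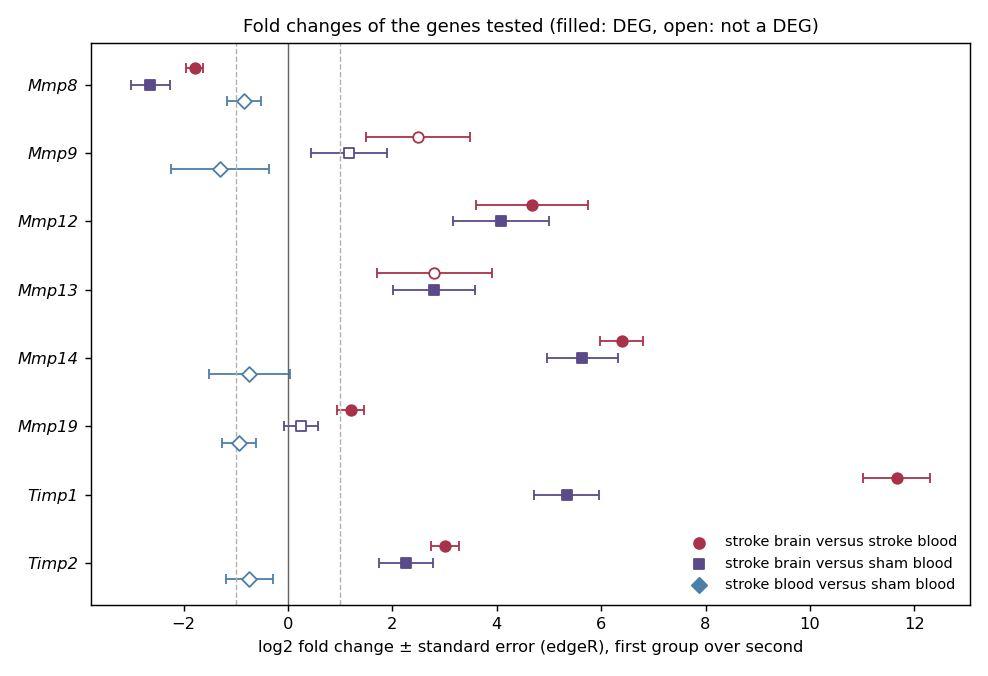
log2 fold change ± SE from edgeR (horizontal axis) of each listed gene that was tested (vertical axis) in 3 comparisons, with filled marks for DEGs, open marks for genes that were not, and dashed lines at the fold threshold. The value of *Timp1* against stroke blood rests on libraries without counts and stands for at least 139-fold, while *Mmp8* lies below 0 in every comparison shown (-1.79, -2.64 and -0.84).

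*Mmp8*, *Mmp12* and *Mmp13* are neighbors. They belong to a run of 10 Mmp genes over 427 kb of chromosome 9, from 7272514 to 7699585. *Mmp8* took 99.3% of all counts of these 10 genes over the 9 libraries. *Mmp1a*, *Mmp1b* and *Mmp20* had no count in any library, and 8 of the 10 genes had at most 10 counts in every blood library. In the brain *Mmp13*, *Mmp12* and *Mmp7* had counts in every library, *Mmp10* and *Mmp3* only in replicate 1 (70 and 2 counts), and *Mmp27* in replicates 1 and 3 (15 and 28 counts). So *Mmp8* was lower in the brain while *Mmp12*, of the same run, was higher, and both passed the threshold.

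**Figure D4:**
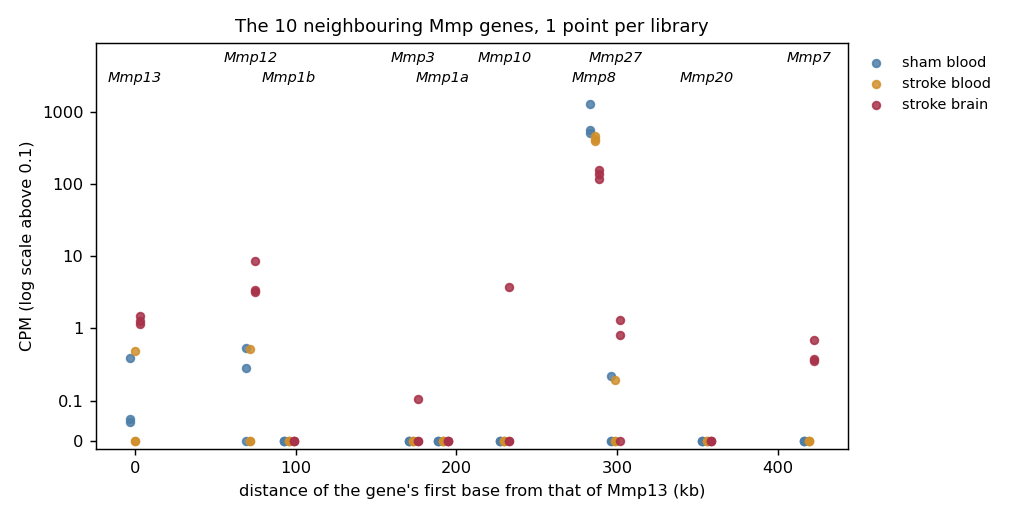
CPM (vertical axis, log scale above 0.1) of the 10 neighboring Mmp genes in each library, placed by the distance of each gene's first base from that of *Mmp13* (horizontal axis, kb), with blue for sham blood, orange for stroke blood and red for stroke brain. *Mmp8* lies between 117 and 1274 CPM in every library, while no other gene of the run exceeds 8.65 CPM.

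The bases just before the transcription start are shown for members that were higher or lower in the brain, because dimers of AP-1 subunits bind such motifs and some of their genes, such as *Fosl1* and *Fos*, were also higher there. RefSeq promoter windows (GRCm38.p6) were matched for 7 of the 9 symbols, *Mmp9* and *Mmp19* being absent, and gave 8 windows because *Mmp12* has a pair of starts. The motif searched was TGANTCA, which reads the same on both strands, in the 100 bases upstream of the start. It was held by 2 of the 8 windows, and by 897 of all 32851 promoters (2.73%). Capitals mark the motif in the 5 windows that lie off annotated exons, all on the forward strand: *Mmp13* at chr9:7272414-7272513, *Mmp12* at chr9:7347274-7347373, *Mmp8* at chr9:7558329-7558428, *Mmp14* at chr14:54431498-54431597 and *Timp1* at chrX:20870066-20870165.
Mmp13: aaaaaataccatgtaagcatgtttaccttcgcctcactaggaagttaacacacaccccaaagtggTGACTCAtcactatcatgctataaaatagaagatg
Mmp12: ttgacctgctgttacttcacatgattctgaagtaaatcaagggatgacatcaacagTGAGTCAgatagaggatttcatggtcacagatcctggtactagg
Mmp8: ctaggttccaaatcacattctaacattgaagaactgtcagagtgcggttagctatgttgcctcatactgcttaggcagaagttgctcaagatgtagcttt
Mmp14: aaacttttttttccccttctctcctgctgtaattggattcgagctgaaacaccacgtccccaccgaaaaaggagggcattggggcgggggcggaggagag
Timp1: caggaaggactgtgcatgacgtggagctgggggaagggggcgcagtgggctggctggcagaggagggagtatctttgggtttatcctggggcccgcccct
In *Mmp13* the motif was TGACTCA, from 35 to 29 bases before the start, and in *Mmp12* it was TGAGTCA, from 44 to 38 bases before the downstream of its starts, while the window of its other start did not hold it. The windows of *Mmp8*, *Mmp14* and *Timp1* did not hold these letters. A match is a description and not a site or a cause, and an absent match says only that the letters are not in this window.

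The balance of proteinase and inhibitor transcripts was described per library as the summed level of the 6 listed Mmp genes over that of the 3 listed Timp genes, in CPM per kb of exon union. The log2 ratio was 5.58, 3.87 and 5.44 in sham blood, 4.95, 5.07 and 4.61 in stroke blood and 0.29, 0.61 and 0.29 in the brain. Blood libraries were therefore all above 3.8 and brain libraries all below 0.7 on this scale, with no overlap. The means were 4.96 ± 0.95 in sham blood, 4.88 ± 0.24 in stroke blood and 0.40 ± 0.18 in the brain (SD, n = 3). The summed Mmp level was 167, 201 and 176 CPM per kb in stroke blood and 83.5, 110 and 117 CPM per kb in the brain, whereas the summed Timp level was 5.39, 5.97 and 7.20 CPM per kb in stroke blood and 68.5, 72.0 and 95.3 CPM per kb in the brain. The Timp sum was thus higher in the brain without overlap. The Mmp sum was lower there by this length and without correction for length, but not by mean transcript length, by which it was 170, 215 and 183 CPM per kb in stroke blood and 146, 243 and 232 CPM per kb in the brain, with overlapping ranges. *Mmp8* made up 95.3% to 97.7% of the summed Mmp level per kb in all blood libraries, but 67.8%, 43.9% and 54.4% in the brain. *Mmp14* took 18.5%, 22% and 16.8% of that sum in the brain and at most 0.185% in blood. By mean transcript length, however, *Mmp14* took 44.3%, 41.9% and 35.7% of the brain sum and *Mmp8* 38.7%, 19.9% and 27.4%, so which gene leads there depends on the length used. *Timp2* took 56.3%, 72.0% and 78.7% of the summed Timp level in the brain, and *Timp1* most of the rest. These are RNA levels, and proteinase activity was not measured.

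**Figure D5:**
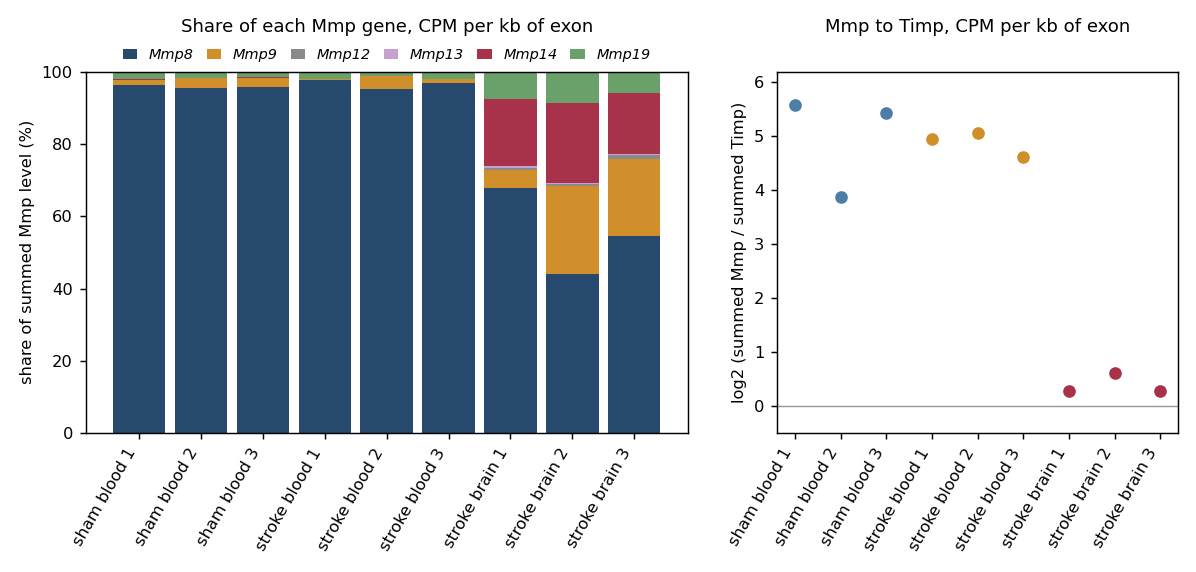
Left, share of each listed Mmp gene in the summed Mmp level of a library (vertical axis, %, CPM per kb of exon union, by which *Mmp8* leads in the brain, unlike by mean transcript length). Right, log2 of the summed Mmp over the summed Timp level per kb, 1 point per library, which lies between 3.87 and 5.58 in blood and between 0.29 and 0.61 in the brain.

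In brain macrophages the order of mean levels in CPM per kb of exon union was *Mmp8* (56.2 ± 7.61), *Timp2* (55.1 ± 18.4), *Timp1* (23.3 ± 5.38), *Mmp14* (19.8 ± 4.41), *Mmp9* (18.7 ± 12.6), *Mmp19* (7.62 ± 1.83), *Mmp12* (0.704 ± 0.426), *Mmp13* (0.485 ± 0.0661) and *Timp3* (0.185 ± 0.193). Neighbors in this order overlapped between libraries except at the steps from *Timp2* to *Timp1*, from *Mmp19* to *Mmp12* and from *Mmp13* to *Timp3*. Divided by mean transcript length, the order became *Timp2* (97.1 CPM per kb), *Mmp14* (83.1), *Mmp8* (56.2), *Mmp9* (51.2) and *Timp1* (24.1), so the order of these genes depends on the length used. In stroke blood *Mmp8* was first at 175 ± 14.7 CPM per kb of exon union, far above *Timp2* at 6.18 ± 0.929, and *Timp2*, *Mmp9* (3.02 ± 3.50) and *Mmp19* (2.98 ± 0.556) followed with overlapping neighbors. In sham blood the same 4 genes led, with *Mmp8* at 321 ± 177 and *Timp2* at 10.7 ± 6.51 CPM per kb of exon union, and *Mmp9* came before *Timp2* when mean transcript length was used.

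Of the 18 other Mmp and Timp genes, 4 had no count in any library (*Mmp1a*, *Mmp1b*, *Mmp16*, *Mmp20*), 4 had fewer than 10 counts in every library (*Mmp3*, *Mmp21*, *Mmp24*, *Timp4*) and 10 reached 10 counts or more in a library. Among the 17 other Mmp genes, 4 were tested in brain versus stroke blood, of which 3 were upregulated and none downregulated in edgeR, with a median log2 fold change of 3.02 (2.42 with a gene without counts in blood set at its bound). *Mmp2*, which encodes gelatinase A, the enzyme that MT1-MMP activates, was the most abundant of them. It had 181, 68 and 195 counts in the brain against 3, 25 and 14 in stroke blood, and rose by 3.22 on the log2 scale (SE 0.71, edgeR adjusted p = 0.00845). *Mmp25*, which encodes a membrane-anchored proteinase of leukocytes and is also on the neutrophil list, had 97, 125 and 110 counts in the brain against 0, 30 and 11, and rose by 2.82 (SE 0.88, edgeR adjusted p = 0.0367). *Mmp23* had 11, 13 and 14 counts in the brain and none in stroke blood, at least 4.06-fold higher (edgeR adjusted p = 0.00516).

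*Mmp28* had 54, 3 and 20 counts in the brain and 24, 67 and 22 in stroke blood, and these ranges overlapped (log2 fold change -0.64, SE 0.88, edgeR adjusted p = 0.618). Counts of the remaining genes were low and not tested in brain versus stroke blood. *Mmp7* had 7, 8 and 15 counts in the brain and none in blood, *Mmp11* had 0, 26 and 12 in the brain and at most 1 in a blood library, *Mmp15* had 11, 1 and 0 in the brain, and *Mmp17* had 23, 0 and 0 in the brain and 20, 11 and 3 in sham blood. *Mmp10*, at least 8.37-fold higher in the brain than in stroke blood by its group mean, rested on replicate 1 alone. Exons of *Mmp28*, *Mmp7* and *Mmp11* overlap *1700020L24Rik*, *AV064505* and *Chchd10* on the opposite strand, which makes their counts uncertain.

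Other genes around the same proteinases were counted on fixed lists. Of 5 further metalloproteinase inhibitors, 2 were tested and 1 was upregulated in the brain over stroke blood (median log2 fold change 2.65). This was *Reck*, a membrane-anchored MMP inhibitor and the most abundant of the list, with 61, 33 and 37 counts in the brain against 2, 7 and 0 (log2 fold change 3.69, SE 0.89, edgeR adjusted p = 0.0127). Of 20 Adam and Adamts genes, which encode related metalloproteinases, 10 were tested and 3 were upregulated, with a median of 0.37. *Adam8*, a leukocyte surface proteinase, rose by 4.12 (407 ± 54.5 CPM in the brain, 21.1 ± 11.3 CPM in stroke blood), *Adam9* rose by 1.18, and *Adamts1* was at least 36.6-fold higher. Exons of *Adam8* overlap *Gm16201*. *Adam10*, the most abundant, did not reach the fold threshold (log2 fold change 0.94).

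The list of 18 genes of proMMP activation covers the plasminogen system, convertases and serine proteases, and holds inhibitors as well as activators. Of these genes 11 were tested and 7 were upregulated in the brain over stroke blood, with a median log2 fold change of 2.24. *Plg*, the gene of plasminogen itself, had no count in any library. *Serpine2*, a serpin that inhibits thrombin and plasminogen activators, rose by 4.81 (75.1 ± 48.6 against 2.40 ± 1.22 CPM). *Elane*, neutrophil elastase, rose by 4.57 and stood at 162, 11.1 and 17.9 CPM in the brain replicates, and *Serpinb2*, an inhibitor of plasminogen activators whose exons overlap *Serpinb10*, rose by 3.28. *Plaur*, the urokinase receptor and the most abundant, rose by 1.18 (747 ± 295 against 296 ± 41.4 CPM). Of 17 surface partners and clearance receptors, all 17 were tested, 5 were upregulated and 1 was downregulated, with a median of 0.50. *Cd63*, a tetraspanin that binds TIMP1, rose by 5.65 (283 ± 88.5 against 5.05 ± 6.16 CPM), *Sdc4* rose by 5.29, and *Cav1*, with a single count in stroke blood, had a pooled ratio of 170 (95% interval 30.1 to 6750). *Itgb3* fell by 1.88, and *Lgals3*, the most abundant at 2100 CPM over the 9 libraries, was not a DEG (log2 fold change -0.10).

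Of 22 genes of AP-1 subunits and other regulators of Mmp transcription, all 22 were tested and 14 were upregulated in the brain over stroke blood, none being downregulated in edgeR, with a median log2 fold change of 1.73. *Fosl1*, an AP-1 subunit, rose by 5.13 (7.33 ± 1.69 against 0.185 ± 0.0739 CPM), with exons that overlap *Ccdc85b*. *Cebpb* rose by 5.08 (1320 ± 321 against 35.0 ± 14.6 CPM), with exons that overlap *Tmem189*, and *Egr1* rose by 4.79. *Fos*, the most abundant, rose by 1.61. Of 13 cytokine genes known to induce Mmp or Timp genes, 12 were tested and 9 were upregulated, with a median of 3.39. *Vegfa* was at least 615-fold higher but uneven, at 242, 16.7 and 15.6 CPM in the brain replicates, *Il1a* had a pooled ratio of 3410 (95% interval 611 to 135000) and *Il10* one of 121 (21.3 to 4800), both against a single count. *Il1b*, the most abundant, rose by 3.93 (1570 ± 201 against 92.3 ± 34.6 CPM). Of 18 genes of matrix substrates, 8 were tested, 2 were upregulated and 2 were downregulated, with a median of 1.00. *Spp1*, osteopontin, rose by 10.83 and *Thbs1* by 5.12, while *Fn1*, fibronectin and the most abundant, fell by 1.59 (900 ± 407 against 2430 ± 504 CPM) and *Vcan* fell by 1.05. Exons of *Spp1*, *Thbs1*, *Fn1*, *Il1a* and *Il1b* overlap other genes (*Gm42793*, *Gm29233*, *Apol7d*, *Gm14023* and *Il1bos*), so their counts are uncertain, as are those of *Fosl1* and *Cebpb*.

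The lists of cell markers give the setting of these values. The 12 monocyte or macrophage markers were all tested, with 2 upregulated and 2 downregulated in the brain over stroke blood, and *Lyz2*, the most abundant, fell by 1.33. All 10 microglia markers were upregulated, with a median log2 fold change of 8.12 (6.28 with genes without counts in blood at their bound), among them *Siglech* (at least 671-fold), *Olfml3* (10.91) and *Sall1* (at least 80.2-fold). The microglia markers summed to 1598, 2337 and 4483 CPM in the brain, between 150 and 218 CPM in stroke blood and between 166 and 248 CPM in sham blood. In the brain replicates *Timp2* followed the same order (150, 202 and 292 CPM) but *Mmp14* (92.0, 144.5 and 117 CPM) and *Timp1*, highest in replicate 1, did not. That order was not particular to microglia. Sums of border-associated macrophage, astrocyte, T or NK cell and some other marker lists also rose from replicate 1 to 3. Those of neutrophil and choroid plexus genes did not. The part of microglial RNA in the levels of *Timp2*, *Mmp14* and the other members was not tested. Border-associated macrophage markers were upregulated in 5 of 6 tested, summing to 227, 297 and 466 CPM in the brain and 88.8, 111 and 119 CPM in stroke blood. Most of the stroke blood sums was *Pf4*, which is also on the platelet list. It stood at 72.9, 84.2 and 95.5 CPM in stroke blood and 35.0, 56.5 and 78.7 CPM in the brain. Dendritic cell markers, which share *Siglech* with the microglia list, were upregulated in 8 of 9 tested.

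Further marker lists in brain versus stroke blood gave 2 upregulated of 8 tested for T or NK cells, 0 DEGs of 5 for B cells, 0 of 1 for mast cells or basophils and 0 of 1 for neurons in edgeR. Platelet genes were downregulated in 6 of 7 tested and erythroid genes in 7 of 7, the latter summing to between 13800 and 18460 CPM in stroke blood and between 4.16 and 14.5 CPM in the brain. In sham blood replicates 1 to 3 the erythroid sum was 1223, 34180 and 30420 CPM and the platelet sum 18.1, 459 and 670 CPM. Sham blood replicate 1, which stood apart in both sums, also held most sham counts of *Timp1* and *Mmp13* and the lowest sham level of *Timp2*. The part of erythroid and platelet RNA in the member levels was not tested. Endothelial genes were upregulated in 2 of 4 tested, with *Cldn5* and *Tek* without a count in any library, and oligodendrocyte genes in 2 of 5, with *Mog* and *Olig1* without a count. Astrocyte genes were upregulated in 4 of 5 tested, summing to 19.9, 26.03 and 35.1 CPM in the brain. Choroid plexus genes were upregulated in 3 of 3 tested, summing to 254, 32.8 and 112 CPM in the brain and 0 in all blood libraries. The part of brain tissue RNA in the member levels was not tested.

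The comparison of stroke blood with sham blood asks whether the listed genes differed in circulating cells 5 days after stroke. No listed gene was a DEG. Of the 5 that passed the filter (*Mmp8*, *Mmp9*, *Mmp14*, *Mmp19* and *Timp2*), 0 were upregulated, against 0.0079% of all 12664 genes tested, and 0 were downregulated, against 0%. DESeq2 also called 0 of the listed genes. At an unadjusted p below 0.05 the edgeR test gave 2 listed genes, *Mmp8* and *Mmp19*, and 1581 genes in all. The single DEG of the comparison was *Serpinb10* (log2 fold change 1.84, SE 0.17, edgeR adjusted p = 0.0231), whose exons overlap *Serpinb2*, and DESeq2 gave 127 DEGs.

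All 5 log2 fold changes of stroke over sham blood were below 0, with a median of -0.84 beside -0.03 for all genes tested. The values were -0.84 for *Mmp8* (SE 0.32, edgeR adjusted p = 0.357), whose groups did not overlap, and -0.94 for *Mmp19* (SE 0.32, edgeR adjusted p = 0.328), whose groups did not overlap either. For *Mmp9* the value was -1.31 (SE 0.94), for *Mmp14* -0.74 (SE 0.77) and for *Timp2* -0.74 (SE 0.45), all with overlapping groups. Sham blood replicate 3 was the highest library of its group for *Mmp8*, *Mmp9*, *Mmp14* and *Mmp19*, and without it the values were 0.42 for *Mmp14*, -0.61 for *Mmp9*, -0.29 for *Mmp8* and -0.53 for *Mmp19*. The value of *Mmp9* was -2.82 without stroke blood replicate 2. *Timp1*, which did not pass the filter here, had 20, 6 and 2 counts in sham blood and none in stroke blood. Without the filter its edgeR adjusted p was 0.0669. *Mmp12* and *Mmp13* had like counts in both blood groups, with pooled ratios of 0.682 (95% interval 0.286 to 1.56) and 0.992 (0.370 to 2.65). On the lists of related genes, edgeR called 0 genes in either direction in this comparison. None of the further metalloproteinase inhibitors was tested. Medians of the other lists were between -0.73 for the other Mmp genes and 0.00 for the surface partners. The 16 marker lists also had 0 DEGs in edgeR between the blood groups, although no choroid plexus gene was tested there. The neutrophil markers had a median of -1.16 over 11 tested.

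The comparison of stroke brain with sham blood uses the same brain libraries as that with stroke blood, so the values are given side by side and are not independent of it. Of the 8 listed genes tested, 5 were upregulated in the brain, against 9.75% of all 13020 genes tested, and 1 was downregulated, against 3.67%. The median log2 fold change of the listed genes was 2.53, beside 0.01 for all genes. *Mmp14* rose by 5.64 over sham blood (SE 0.68, edgeR adjusted p = 0.00225) and by 6.39 over stroke blood, and without sham blood replicate 3 the former was 6.79. *Timp1* rose by 5.34 (SE 0.62, edgeR adjusted p = 0.00187), and by 6.54 without sham blood replicate 1, which held 20 of the 28 sham counts. *Mmp8* fell by 2.64 (SE 0.37, edgeR adjusted p = 0.00392), more than the 1.79 by which it fell relative to stroke blood. As the brain libraries are shared, the difference between these values is that of stroke and sham blood, for which *Mmp8* was not a DEG (log2 fold change -0.84).

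The other members were less stable against sham blood. *Timp2* rose by 2.26 (SE 0.52, edgeR adjusted p = 0.0212), and was not called without sham blood replicate 3 (log2 fold change 2.40), brain replicate 2 (2.30) or brain replicate 3 (1.96). *Mmp12* rose by 4.09 (SE 0.92, edgeR adjusted p = 0.0197), and was not called without sham blood replicate 2 (4.10) or brain replicate 3 (3.46), while its log2 fold change was 5.00 without sham blood replicate 3. *Mmp13* rose by 2.80 (SE 0.78, edgeR adjusted p = 0.0416), the same fold change as over stroke blood where it was not a DEG. That call held without sham blood replicate 1 (4.42) and was lost without sham blood replicate 2 (2.35) or 3 (2.41) and without brain replicate 1 (2.70), 2 (2.87) or 3 (2.82). *Mmp9* (log2 fold change 1.17, SE 0.73, edgeR adjusted p = 0.298) and *Mmp19* (0.25, SE 0.33, edgeR adjusted p = 0.629) were not DEGs, and both overlapped sham blood. With each library left out in turn *Mmp9* ranged from 0.77 to 1.88 and *Mmp19* from 0.03 to 0.66, and neither was called. *Mmp19* was thus higher in the brain than in stroke blood but overlapped sham blood, with brain replicate 2 above every sham library. Brain *Timp3* was at least 10.1-fold above sham blood and did not pass the filter, a bound that rests mostly on brain replicate 1 with 62 of the 89 counts. When tested without the filter, its adjusted p was 0.00653 in edgeR and 0.000133 in DESeq2, and the fitted fold changes against a group without counts are not given.

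Against sham blood, the related lists gave 2 upregulated of 5 tested for the other Mmp genes, 0 of 2 for the further inhibitors, 2 of 10 for Adam and Adamts genes, 6 of 11 for proMMP activation, 6 of 17 for surface partners, 8 of 22 for regulators of transcription and 8 of 12 for cytokines. Matrix substrates gave 2 upregulated and 2 downregulated of 8. *Mmp2* rose by 2.49 (SE 0.49, edgeR adjusted p = 0.013), *Mmp23* by 4.63 (pooled ratio 36.4, 95% interval 6.15 to 1470, against a single count), whereas *Mmp25* (1.74, edgeR adjusted p = 0.0788) and *Reck* (1.81, edgeR adjusted p = 0.0635) were not DEGs. The neutrophil markers had 4 upregulated of 11 tested, with a median of 1.74. The microglia markers were upregulated in 10 of 10 tested, border-associated macrophage markers in 5 of 6, dendritic cell markers in 5 of 9 and choroid plexus genes in 3 of 3. Monocyte or macrophage markers had 2 upregulated and 2 downregulated of 12 tested, and B cell genes 4 downregulated of 6.

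Genes most like each member were ranked by Pearson's r of log2(CPM + 1) over the 9 libraries, as a description of libraries that fall into 3 groups. Among about 11641 candidate genes with a mean of at least 1 CPM, *Mmp8* was followed most closely by *Siglece* (r = 0.974), *Rnpep* (0.97) and *Ndrg1* (0.968), which were all highest in sham blood. *Mmp14* was followed by *Rab3il1* (r = 0.993), *Slc37a2* (0.989) and *Gpr84* (0.988), *Timp1* by *Pimreg* (r = 0.997), *Pim3* (0.995) and *Dab2* (0.994), and *Timp2* closely by *Ric1* (r = 0.979) and *Oaf* (0.977). *Mmp12* was followed by *Cep41* (r = 0.993), *Neurl1a* (0.989) and *Fads1* (0.987), and *Mmp13* by *Ccl4* (r = 0.991), *Tomm20* (0.982) and *Lrrc57* (0.979). These were higher in the brain than in either blood group, as their members were. *Mmp9* was followed by *Pomt1* (r = 0.976), *Gys1* (0.964) and *Syt11* (0.963), and *Mmp19* by *Ccr1* (r = 0.953), *Fra10ac1* (0.939) and *Fitm2* (0.925), all lowest on average in stroke blood. *Dab2* averaged 0.139 CPM in stroke blood and 265 CPM in the brain, and *Ccr1* stood at 347, 111 and 214 CPM in brain, stroke blood and sham blood, against 26.9, 10.5 and 20.7 CPM of *Mmp19*. Exons of *Rnpep*, *Ndrg1*, *Pomt1*, *Gys1*, *Neurl1a*, *Lrrc57*, *Slc37a2*, *Gpr84*, *Fitm2* and *Dab2* overlap other genes, so their counts are uncertain.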

How the data were processed

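RNA of sorted monocytes/macrophages was sequenced in 9 libraries, grouped by tissue and surgery as labelled. The authors used Chipster for read quality (FastQC), alignment to GRCm38 (HISAT2) and gene counts (HTSeq). Versions, annotation release and strand setting are not given in the sources used here. The deposited values are raw counts for 53801 genes, 25402 of them with at least 1 count. Between replicates the chi-square of counts was 26.2 to 151.8 per degree of freedom, so each library was treated as its own replicate. Symbols, exon overlaps and lengths came from GENCODE M21, which holds 53706 identifiers, 52142 at the same position.

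Tests used R 4.3.3 with edgeR 4.0.16, fitted to the libraries of the groups compared, with TMM, the default filter and the quasi-likelihood test. The SE is the log2 fold change over the square root of F. Intervals of ratios are exact 95% intervals of pooled counts. Alternatives were DESeq2 1.42.0, RLE, total counts only, no filter, all 9 libraries, the replicate block, other thresholds and leaving out each library. The methods were tested on simulated data. Figures were drawn with matplotlib 3.10.9 and tables made with pandas 2.3.3, scipy 1.17.1 and numpy 2.4.6 under Python 3.11.15.

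The members and lists were chosen with earlier results of these data known. By rule the text names the 9 members, other family genes with at least 10 counts in a library, of most lists the most abundant gene and up to 3 DEGs with the largest change in brain versus stroke blood, genes with the highest r to each member (at most 3), defining markers with few or no counts, and the single DEG between the blood groups. Exceptions are named as chosen after their values were seen.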

Additional observations from a re-analysis of the deposited data

How the results depend on the processing

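Of 96 values of the listed genes recomputed for brain versus stroke blood, 89 kept their direction and their side of the threshold, 2 lost the call and 5 gained it. For stroke versus sham blood 59 of 60 kept both, and for brain versus sham blood 83 of 96 did, while 13 lost the call. The only reversal was *Mmp14* in stroke versus sham blood, which ranged from -1.22 to 0.42 and was above 0 only without sham blood replicate 3, the library with most of its sham counts. At an adjusted p below 0.01 the DEGs among all genes numbered 1793 in brain over stroke blood and 792 in brain over sham blood, 3 of the latter being listed genes, and between the blood groups 0. Stroke versus sham blood had 127 DEGs in DESeq2 and 160 without the filter, and the cause was not tested. Leaving out each library gave 2258 to 3014, 0 to 16 and 1146 to 1883 DEGs in the 3 comparisons, and 5 to 7, 0 to 0 and 4 to 7 among the listed genes. *Mmp9* in brain versus stroke blood was also a DEG without the filter (2.49), and *Mmp13* in brain versus sham blood was not one without the filter (2.79) or with all 9 libraries in one fit (2.81). The log2 ratio of summed Mmp to summed Timp level was 0.75 in the brain and 4.12 in stroke blood per mean transcript length, and 0.59 and 4.22 without correction for length, since the lengths of *Mmp14*, *Mmp9* and *Timp2* differ between these measures. Scaling by total counts only moved the median log2 fold change of all genes by 0.15 in brain versus stroke blood and by 0.12 in brain versus sham blood.

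The replicate numbers do not pair the libraries: correlations of deviations between same-numbered libraries were between -0.071 and 0.07. With the replicate block the DEGs numbered 2634, 1 (downregulated) and 1571 among all genes and 7, 0 and 5 among the listed genes. Paired in this way *Mmp9* was a DEG in brain versus stroke blood (3.09) and *Mmp13* was not one in brain versus sham blood (3.15), and no other call of a listed gene changed.

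Limits come from depth and number. With 3 libraries per group, a gene with few counts can depend on single libraries, as *Mmp13* did in both brain comparisons and *Mmp12* against sham blood. The call of *Timp2* against sham blood also depended on single libraries, although its counts were higher. The smallest difference detectable at this depth is not given. Brain libraries are pools of 5 mice and blood libraries single mice, so the spread within a group does not mean the same in both tissues. Brain cells were also released with a tissue dissociation kit and separated on Percoll, while blood cells were separated on Ficoll without such a step. In every brain versus blood value, those of the AP-1 and cytokine genes included, tissue, pooling and cell preparation cannot be told apart. Counts of *Mmp19* and *Timp3* share sequence with genes on the opposite strand.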
